A study of Mus musculus with 144 samples.

Results

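The endoplasmic reticulum (ER) stress genes described here were 10 genes of the unfolded protein response, Hspa5, Hsp90b1, Calr, Pdia4, Sdf2l1, Dnajb9, Herpud1, Xbp1, Atf4 and Ddit3, of 55364 gene rows measured in single retinal microglia. They were chosen by name with their values in these cells already known, so their levels, differences and correlations are a description and carry no test. All 10 were found in the table, and Ddit3 also had a second row, an overlapping model of 105 bases that was kept apart. Single cells were sorted by flow cytometry from retinas of Iba1-EGFP mice, a strain in which the promoter of a microglial and macrophage gene drives green fluorescent protein. The mice had been given PBS (48 cells, mice 10 to 14 weeks old), ripasudil at 1 mg/kg (48 cells, 14 weeks) or ripasudil at 10 mg/kg (48 cells, 12 weeks). Ripasudil is a ROCK kinase inhibitor, and the series title sets it against GPR84, TNF and IL-1α in microglia after optic nerve injury. The labels do not state the injury of each eye, the route or the time of treatment.

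Each of 3 plates held 16 cells of every group, each group in its own range of wells. No animal is named, so each group counted as 1 sample, and no p-value or standard error is given. Dose cannot be told apart from age, animal or well position. Cells with at least 1000 genes at FPKM 1 or more were kept, which left 46 PBS, 47 low-dose (1 mg/kg) and 47 high-dose (10 mg/kg) cells. FPKM is a level relative to gene length and to the total of assigned reads in the cell, so genes may be compared with each other. Assigned reads per kept cell, estimated from the FPKM values, ran from 30204 to 4668730 with a median of 1614850. The median number of detected genes was 3143 (PBS), 2418 (1 mg/kg) and 2264 (10 mg/kg). Csf1r, the microglial growth factor receptor, was at FPKM 1 or more in 100% of the kept cells, Tmem119 in 88.6% and P2ry12 in 77.9%. At least 3 of 10 rod photoreceptor markers were at FPKM 1 or more in 6 PBS, 7 low-dose and 12 high-dose cells. The highest summed rod FPKM in a cell was 346 in PBS, 4661 at 1 mg/kg and 15404 at 10 mg/kg, and the part of rod transcripts in the results below was not tested beyond leaving those cells out. At least 3 of 8 markers were found for Müller glia in 7, 6 and 6 cells (PBS, 1 and 10 mg/kg), for neutrophils in 9, 8 and 8, for border macrophages in 5, 4 and 3 and for monocytes in 1 of each group. The highest summed FPKM in a cell, in the same order, was 26510, 28594 and 28840 for Müller glia and 83539, 125924 and 78337 for neutrophils. The lowest sum of the 12 microglial markers was 35.2, 839 and 199, beside medians of 8689, 8632 and 8454. No setting left out the cells with Müller glia or neutrophil markers, and their part in the results was not tested. For cones and for B or plasma cells no cell held 3 markers, and 1 low-dose cell did for endothelium. Igkc, Jchain, Mzb1 and Derl3, genes of antibody-secreting cells, were at 0 in every kept cell, while Ighm, the heavy chain of IgM, was at FPKM 1 or more in 96 cells (68.6%) and Sdc1 in 3.

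The unfolded protein response adjusts the folding capacity of the ER to its load. Sensors in the ER membrane start it. PERK slows translation and favours synthesis of ATF4, which induces CHOP (the product of Ddit3). IRE1 cuts a short intron out of Xbp1 RNA so that the active XBP1 factor is made, and ATF6 is cleaved to a factor that acts on chaperone promoters. BiP (Hspa5), the main ER chaperone, binds the sensors while they are at rest. Microglia are secretory and phagocytic cells, and several of these genes are also part of their ordinary folding machinery.

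The sequences that link these genes to the pathway are shown first, since the table holds only 1 value per gene. The intron that IRE1 removes from Xbp1 was found in 3 coding transcripts of GENCODE M21, at bases 815 to 840 of Xbp1-201. It is 26 bases long, in capitals here with 9 flanking bases on each side, and a value per gene cannot tell the spliced from the unspliced RNA.
Xbp1: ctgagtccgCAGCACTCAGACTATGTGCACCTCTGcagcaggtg

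The promoters below are the 250 bases before the RefSeq start on GRCm38.p6, 5′ to 3′ on the strand of the gene. All 10 genes matched 1 RefSeq entry each. Capitals mark the ER stress response element (ERSE), CCAAT and CCACG separated by 9 bases, or its variant ERSE-II, ATTGG and CCACG separated by 1 base, on either strand. They are shown because only these 4 of the 10 promoters held either element. Hspa5 lies at chr2:34771840-34772089 on the plus strand and held an ERSE at -65 to -47. Calr lies at chr8:84846932-84847181 on the minus strand and held one at -162 to -144 in the opposite orientation. Hsp90b1 lies at chr10:86705445-86705694 on the minus strand and held one at -212 to -194 and another, in the opposite orientation, at -107 to -89. Herpud1 lies at chr8:94386179-94386428 on the plus strand and held an ERSE-II at -52 to -42.
Hspa5: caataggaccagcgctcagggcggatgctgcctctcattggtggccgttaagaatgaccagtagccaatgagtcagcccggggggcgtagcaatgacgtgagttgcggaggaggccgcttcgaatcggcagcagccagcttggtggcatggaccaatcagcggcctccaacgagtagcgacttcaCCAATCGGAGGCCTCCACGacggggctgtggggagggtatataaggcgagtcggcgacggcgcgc
Calr: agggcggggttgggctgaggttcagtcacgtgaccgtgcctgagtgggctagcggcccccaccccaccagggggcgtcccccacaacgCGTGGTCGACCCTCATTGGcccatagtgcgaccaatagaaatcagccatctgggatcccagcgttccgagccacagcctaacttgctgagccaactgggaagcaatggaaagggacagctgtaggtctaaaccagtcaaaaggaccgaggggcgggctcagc
Hsp90b1: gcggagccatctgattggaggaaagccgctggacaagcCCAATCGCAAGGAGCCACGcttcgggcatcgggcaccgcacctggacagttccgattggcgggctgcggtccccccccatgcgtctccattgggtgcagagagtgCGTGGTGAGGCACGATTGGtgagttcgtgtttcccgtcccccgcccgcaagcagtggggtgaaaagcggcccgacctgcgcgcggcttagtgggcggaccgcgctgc
Herpud1: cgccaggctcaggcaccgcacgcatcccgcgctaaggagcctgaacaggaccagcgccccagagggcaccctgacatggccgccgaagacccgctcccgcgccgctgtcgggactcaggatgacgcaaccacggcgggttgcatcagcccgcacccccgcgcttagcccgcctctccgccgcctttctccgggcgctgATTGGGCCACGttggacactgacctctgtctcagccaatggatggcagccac

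Of 32851 RefSeq promoters of the same length, 37 (0.113%) held an ERSE and 10 (0.030%) an ERSE-II. Among the 17 ER chaperone genes with a promoter entry, 7 held an ERSE, and these were Calr, Canx, Creld2, Dnajc3, Hsp90b1, Hspa5 and Pdia6. None of the 25 entries of the ATF4 and CHOP list did. The XBP1 element TGACGTGG stood in 0.563% of all promoters and in 0 of the 10. The ATF4 element TGATGNAA stood in 3.45% of all promoters and in 1 of the 10, at -112 to -105 in Herpud1. These are matches of letters in a window and say nothing about binding.

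Levels differed widely between the genes and between cells of 1 group. Over all 140 cells the mean log2(FPKM + 1) level was highest for Hspa5 (6.61 ± 3.54, SD over cells), then Calr (5.88 ± 3.43), Sdf2l1 (5.53 ± 3.86), Hsp90b1 (4.43 ± 3.39), Pdia4 (3.58 ± 3.49), Xbp1 (3.13 ± 3.36), Herpud1 (2.71 ± 3.34), Ddit3 (2.06 ± 2.53), Atf4 (1.71 ± 2.59) and Dnajb9 (0.91 ± 1.91). The gap between each gene and the next in this order was smaller than the SD over cells of either one. Cells were split into high and low ones: Hspa5 reached FPKM 1 in 135 cells, FPKM 10 in 95 and FPKM 100 in 82, so that few cells lay between 10 and 100. Among the 4806 genes at FPKM 1 or more in at least 25% of the cells of any group, the Hspa5 level stood at the 97.1 percentile and that of Atf4 at the 53.6 percentile. Dnajb9 was too rare for that set and the other 9 genes were in it.

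**Figure D1:**
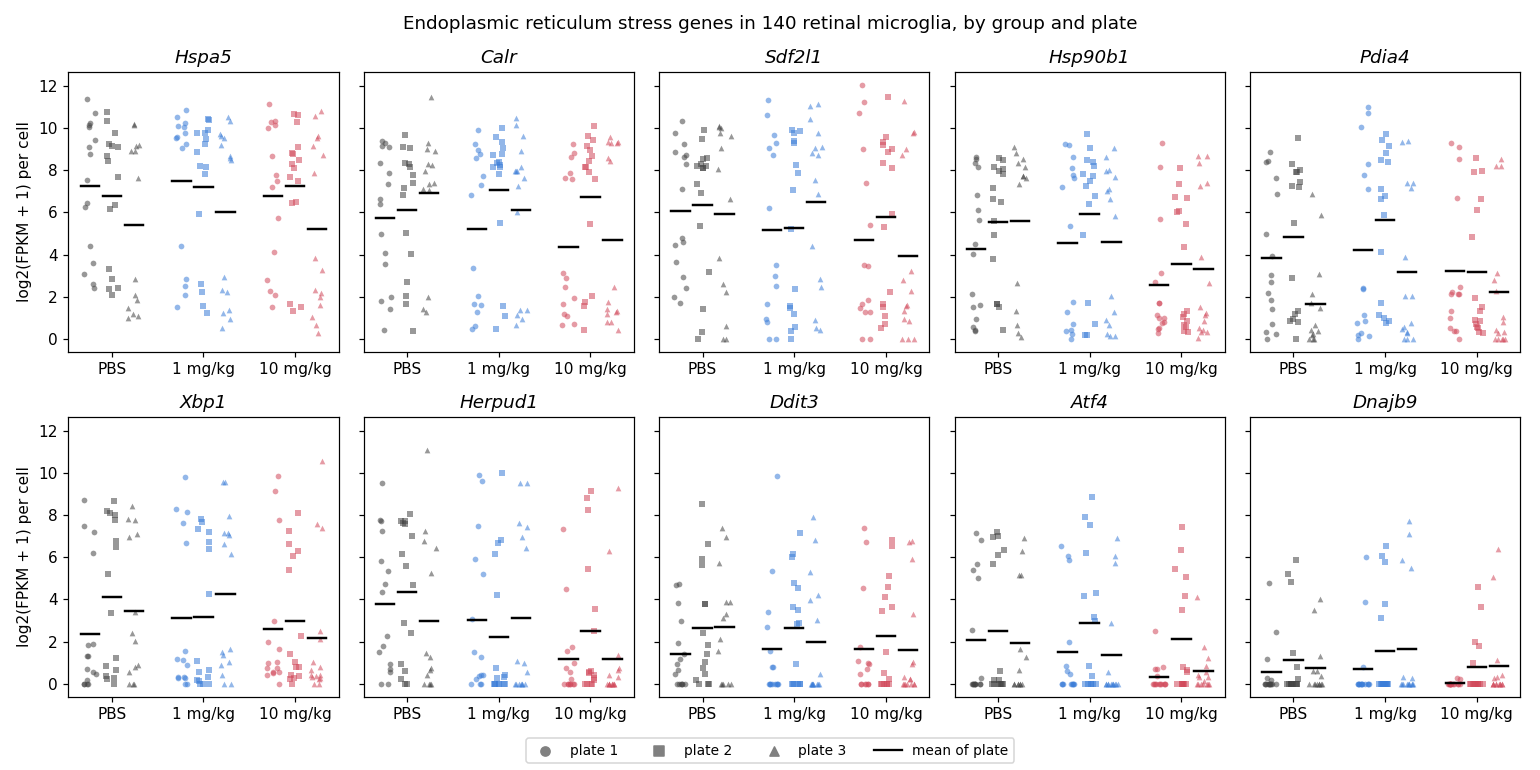
Level of each gene in each of the 140 kept cells, as log2(FPKM + 1), by group (PBS, ripasudil 1 mg/kg, ripasudil 10 mg/kg) and plate (marker shape), with a black line for the mean of each plate. Cells split into high and low ones in every group, and the plate means of Herpud1 and Hsp90b1 at 10 mg/kg lie below the PBS mean of the same plate on all 3 plates.

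Among the chaperones, Hspa5 (chr2:34771970-34777547, plus strand), which encodes BiP, was the most widely seen. Its FPKM ran from 0.988 to 2648 with a median of 199 in PBS cells, from 0.444 to 1870 with a median of 463 at 1 mg/kg and from 0.236 to 2221 with a median of 201 at 10 mg/kg. The 3 groups overlapped over almost the whole range. Its share of cells at FPKM 1 or more was 97.8% in PBS (45 of 46, exact 95% interval 88.5 to 99.9%) and 95.7% (45 of 47, 85.5 to 99.5%) at each dose. These intervals, like all others here, are Clopper-Pearson intervals and cover counting error only.

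Hsp90b1 (chr10:86690209-86705509, minus strand) encodes GRP94, the ER form of Hsp90. Its FPKM had a lowest, median and highest value of 0.086, 78.2 and 552 in PBS cells, 0, 108 and 849 at 1 mg/kg and 0.049, 1.51 and 632 at 10 mg/kg. High-dose cells reached a similar maximum, but 17 of 47 were at FPKM 10 or more, against 30 of 46 PBS and 29 of 47 low-dose cells. The share at FPKM 1 or more was 82.6% (68.6 to 92.2%) in PBS, 72.3% (57.4 to 84.4%) at 1 mg/kg and 63.8% (48.5 to 77.3%) at 10 mg/kg. Hsp90b1 overlaps 3 annotated genes, 1810014B01Rik, Gm15344 and Gm25745, and whether reads were counted by strand is not given in the sources used here.

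Calr (chr8:84841850-84846934, minus strand) encodes calreticulin, a calcium-binding chaperone of glycoproteins. Its FPKM had a lowest, median and highest value of 0.307, 163 and 2869 in PBS, 0.377, 247 and 1440 at 1 mg/kg and 0.346, 191 and 1093 at 10 mg/kg. It was at FPKM 1 or more in 95.7%, 89.4% and 87.2% of cells in that order. The groups overlapped, and 35 PBS, 32 low-dose and 25 high-dose cells were at FPKM 10 or more. A processed copy, Calr-ps, was at FPKM 1 or more in 4, 3 and 4 cells.

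Of the folding enzymes and co-chaperones, Sdf2l1 (chr16:17130138-17132383, minus strand), a partner of BiP, had the widest range. Its lowest, median and highest FPKM were 0, 216 and 1291 in PBS, 0, 117 and 2541 at 1 mg/kg and 0, 8.34 and 4246 at 10 mg/kg. The high-dose group thus held both the lowest median and the highest single value. Pdia4 (chr6:47796141-47813430, minus strand) encodes ERp72, a protein disulfide isomerase. It had 0, 3.44 and 734 in PBS, 0, 4.41 and 2030 at 1 mg/kg and 0, 1.53 and 620 at 10 mg/kg. Pdia4 was at FPKM 100 or more in 14 PBS, 19 low-dose and 10 high-dose cells. It was at FPKM 1 or more in 65.2%, 63.8% and 55.3% of cells in that order. Pdia4 overlaps the annotated gene Mir704, whose mean FPKM was 128, 385 and 118 in these groups. Dnajb9 (chr12:44205559-44210326, minus strand) encodes ERdj4, a BiP co-chaperone that feeds back on IRE1. It was the rarest, at FPKM 1 or more in 21.7%, 23.4% and 14.9% of cells at PBS, 1 mg/kg and 10 mg/kg, with a median of 0 in each and a highest value of 56.9, 209 and 82.5.

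Herpud1 (chr8:94386438-94395377, plus strand) encodes a membrane protein of the machinery that removes misfolded proteins from the ER. Its lowest, median and highest FPKM were 0, 5.37 and 2187 in PBS, 0, 0.357 and 1002 at 1 mg/kg and 0, 0.263 and 611 at 10 mg/kg. It was at FPKM 1 or more in 29 of 46 PBS cells (63.0%, 47.5 to 76.8%), 20 of 47 low-dose cells (42.6%, 28.3 to 57.8%) and 14 of 47 high-dose cells (29.8%, 17.3 to 44.9%). These intervals compare cells and not animals, and the share of compared genes with intervals as far apart was not counted. Of the 4806 compared genes, 81.4% had a lower mean level at 10 mg/kg than in PBS. By plate, 11, 11 and 7 PBS cells and 5, 6 and 3 high-dose cells carried it on plates 1, 2 and 3. In the order of mean levels Herpud1 was the fifth gene in PBS, the seventh at 1 mg/kg and the eighth at 10 mg/kg. The antisense gene Gm15890, which overlaps it, was at FPKM 1 or more in 11, 5 and 4 cells.

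Of the transcription factors, Xbp1, the target of IRE1 (chr11:5520659-5525893, plus strand) was at FPKM 1 or more in 56.5% (PBS), 59.6% (1 mg/kg) and 48.9% (10 mg/kg) of cells, with medians of 2.06, 1.57 and 0.761. Ddit3 (chr10:127290774-127296288, plus strand), whose product CHOP is linked to cell death under lasting stress, was at FPKM 1 or more in 56.5%, 42.6% and 38.3% of them, with medians of 1.68, 0.403 and 0.367. Atf4 (chr15:80255184-80257541, plus strand), the factor upstream of Ddit3, was at FPKM 1 or more in 39.1%, 34% and 21.3% of them, with medians of 0.064, 0 and 0. Ddit3 overlaps Gm4189, Mars and its own short model, which was at FPKM 1 or more in 10 PBS, 7 low-dose and 12 high-dose cells, and its level is uncertain to that extent. ATF4 is mainly regulated at translation, which RNA levels do not show. Cells with both Atf4 and Ddit3 numbered 14 of 46 in PBS, 16 of 47 at 1 mg/kg and 6 of 47 at 10 mg/kg. At 1 mg/kg all 16 cells with Atf4 also carried Ddit3. Of these, 15 had 3000 or more detected genes, a range in which 16 of 18 low-dose cells carried Ddit3.

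In high-dose cells all 10 genes had a lower mean log2(FPKM + 1) than in PBS cells, as had 81.4% of the 4806 compared genes. The median difference of the 10 was -0.84 against -0.43 over all compared genes, and on each plate 8 of the 10 were below 0. Herpud1 and Hsp90b1 had the largest differences of the 10 and were lower by more than 1 on every plate. A difference was called, by size alone, when it was at least 1 in size with the same sign on all 3 plates, and 4 of the 10 were called lower beside 13.4% of all compared genes. None was called higher, beside 0.0624% of all. Herpud1 differed by -2.08 (mean level 1.64 against 3.71), with -2.58, -1.82 and -1.76 on plates 1 to 3. Its mean FPKM was 0.407 of that in PBS cells, and 0.208% of the compared genes had a lower difference. Hsp90b1 differed by -1.96 (3.16 against 5.12), with -1.71, -1.98 and -2.27 on the plates, and its mean FPKM was 0.493 of that in PBS cells.

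The other called genes were lower by less than 1 on plate 2. Sdf2l1 differed by -1.31, with -1.40, -0.57 and -1.95 by plate, but its mean FPKM was 1.39 times that in PBS cells, with a few high-dose cells at very high values. Atf4 differed by -1.14, with -1.72, -0.39 and -1.33. Calr differed by -0.94 with opposite signs on the plates (-1.37, 0.61 and -2.20). Xbp1 differed by -0.73, Pdia4 by -0.63, Ddit3 by -0.40, Dnajb9 by -0.24 and Hspa5 by -0.13, and each of these changed sign on at least 1 plate. Leaving out the cells with rod markers gave a median of -0.60 for the 10 genes, with Herpud1 at -2.18, Hsp90b1 at -1.52, Atf4 at -1.15 and Sdf2l1 at -1.01.

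In low-dose cells the differences from PBS were of both signs, and the 2 dose effects were not tested against each other. In all, 6 of the 10 genes were below 0, beside 64.7% of all compared genes, and the medians were -0.09 for the 10 and -0.18 for all. That direction did not hold within plates: the median of the 10 was 0.18, 0.38 and 0.39 on plates 1, 2 and 3, with 4 of the 10 below 0 on each, against -0.16, -0.10 and -0.26 for all compared genes. None was called in either direction, beside 4.93% called lower and 0.52% called higher over all compared genes. Pdia4 had the highest difference, 0.83 with 0.36, 0.80 and 1.55 on the plates, and its mean FPKM was 2.65 times that in PBS cells. Of all compared genes, 98.5% had a lower difference. The share of cells with Pdia4 at FPKM 1 or more did not rise, at 63.8% against 65.2% in PBS. By plate this share differed by -15, 6.25 and 7.14 points. Dnajb9 (0.52) and Hspa5 (0.36) were also above PBS on all 3 plates. Herpud1 was the lowest at -0.92, with -0.73, -2.11 and 0.17. Sdf2l1 followed at -0.48, Atf4 at -0.25, Ddit3 at -0.14, Hsp90b1 at -0.10 and Calr at -0.07, while Xbp1 was at 0.21.

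Between the doses, all 10 genes were lower at 10 mg/kg, beside 72% of all compared genes, with a median of -0.88 against -0.24 for all. Hsp90b1 (-1.86, with -1.97, -2.36 and -1.25) and Pdia4 (-1.46, with -0.98, -2.43 and -0.94) were called lower, beside 5.66% of all compared genes, and none higher, beside 0.479%. Herpud1 differed by -1.15 with 0.29 on plate 2. The low-dose cells are shared with the comparison against PBS, and the PBS cells are shared by both dose comparisons, so these values are not independent of each other.

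**Figure D2:**
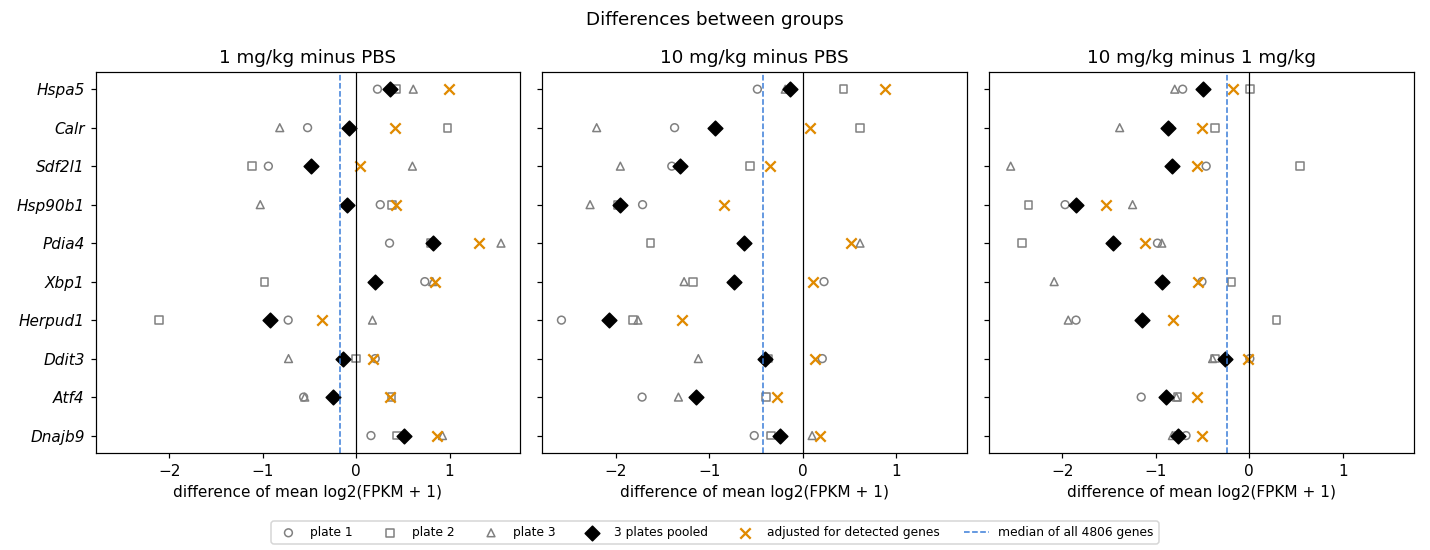
Difference of mean log2(FPKM + 1) between groups for each gene, for 3 plates pooled (diamonds), each plate (open symbols) and with detected genes held level (crosses); the dashed line is the median of all 4806 compared genes. Herpud1 (-2.08) and Hsp90b1 (-1.96) lie lowest at 10 mg/kg against PBS, and most crosses of that panel lie near or above 0.

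The number of detected genes moved with dose and with these genes, so differences of the 10 genes and of the lists further on are also given with it held level. After a linear adjustment for log2 detected genes, the median difference of the 10 genes from PBS was 0.09 at 10 mg/kg (4 of 10 below 0) and 0.42 at 1 mg/kg (1 of 10 below 0), against -0.02 and 0.06 for all compared genes. Herpud1 was then at -1.29 and Hsp90b1 at -0.84 at 10 mg/kg, the lowest of the 10. Sdf2l1 was at -0.35 and Atf4 at -0.27, while Hspa5 was at 0.88 and Pdia4 at 0.52. At 1 mg/kg Pdia4 was at 1.32 and Hspa5 at 0.99. Between the doses all 10 stayed below 0 after adjustment, with Hsp90b1 at -1.53 and Pdia4 at -1.12. Within ranges of detected genes this did not always hold. The median of the 10 between the doses was -0.30 (7 of 10 below 0) with 1000 to 2000 detected genes. It was 0.06 (4 of 10) with 2000 to 3000 and -0.91 (7 of 10) with 3000 or more. Over all compared genes the medians were -0.08, 0.05 and -0.21. In cells with 1500 to 4000 genes Hspa5, Ddit3 and Xbp1 were above 0.

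Within ranges of detected genes the picture depended on the range. With 1000 to 2000 detected genes Herpud1 was at FPKM 1 or more in 2 of 8 PBS, 3 of 19 low-dose and 5 of 21 high-dose cells. With 2000 to 3000 it was in 9 of 15, 4 of 10 and 1 of 14, and with 3000 or more in 18 of 23, 13 of 18 and 8 of 12. In the middle range the exact intervals of PBS (32.3 to 83.7%) and 10 mg/kg (0.18 to 33.9%) overlapped only at their edges, and those of the other ranges overlapped widely. Hsp90b1 was at FPKM 1 or more in 22 of 23 PBS and 11 of 12 high-dose cells with 3000 or more genes, where its mean log2 level was 6.88 ± 2.01 and 5.91 ± 2.24. Hspa5 in cells with 2000 to 3000 genes had a mean of 5.06 ± 2.98 in PBS, 6.09 ± 3.39 at 1 mg/kg and 6.95 ± 2.78 at 10 mg/kg, each difference being smaller than the SD.

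**Figure D3:**
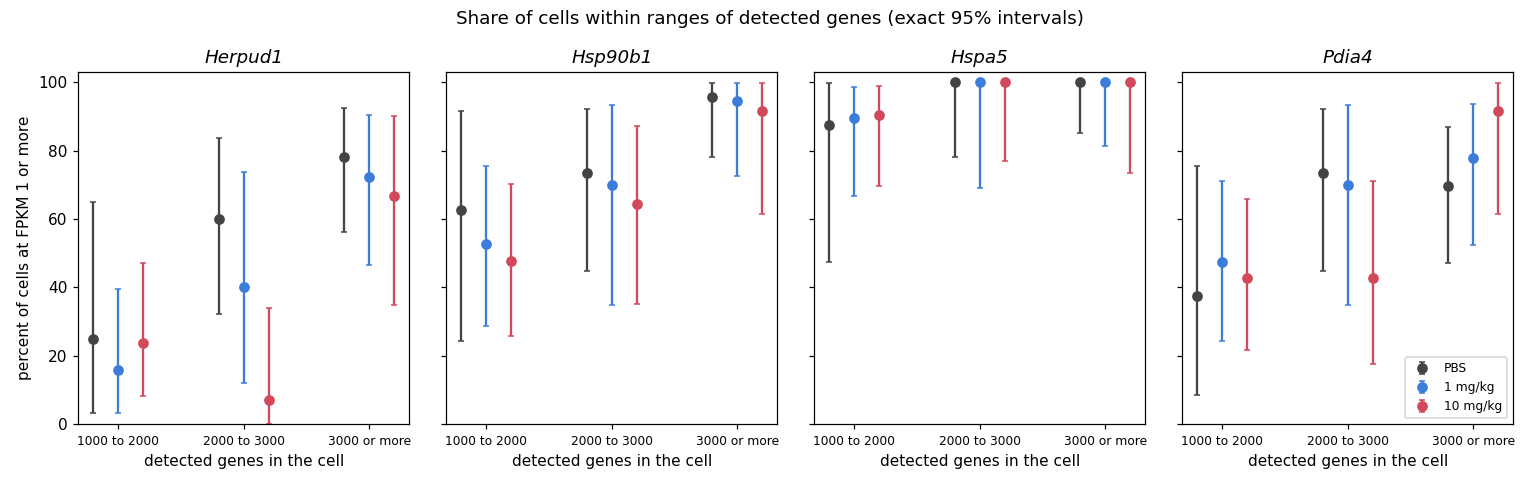
Percent of cells at FPKM 1 or more for Herpud1, Hsp90b1, Hspa5 and Pdia4 within ranges of detected genes per cell, by group, with exact 95% intervals for counting error. Herpud1 at 10 mg/kg is at 1 of 14 cells in the middle range against 9 of 15 PBS cells, and Hspa5 lies between 87.5% and 100% throughout.

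A cell carried 6.67 ± 2.15 (SD, 46 cells) of the 10 genes at FPKM 1 or more in PBS, 6.02 ± 2.67 (47 cells) at 1 mg/kg and 5.36 ± 2.28 (47 cells) at 10 mg/kg. The difference between groups was smaller than the SD over cells. All 10 were found in 5 PBS, 6 low-dose and 4 high-dose cells, 3 or fewer in 4, 11 and 11, and none in 1 high-dose cell. Cells with 3000 or more detected genes carried 7.91 in PBS, 8.61 at 1 mg/kg and 7.92 at 10 mg/kg. Cells with 1000 to 2000 carried 4.38, 4 and 4.10. The summed FPKM of the 10 genes had a median of 1488 in PBS, 2018 at 1 mg/kg and 1069 at 10 mg/kg. Each cell was also thinned to 300000 estimated reads, leaving out 5 cells given PBS, 1 given the low and 3 given the high dose. The expected number of the 10 genes with at least 1 read was then 6.89, 6.29 and 5.65. Just inside the limit on cells, the kept cells with 1006, 1144, 1177 and 1209 detected genes carried 3, 3, 2 and 3 of the 10. Just outside it, the left-out cells with 939, 906, 896 and 876 carried 1, 4, 1 and 4.

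**Figure D4:**
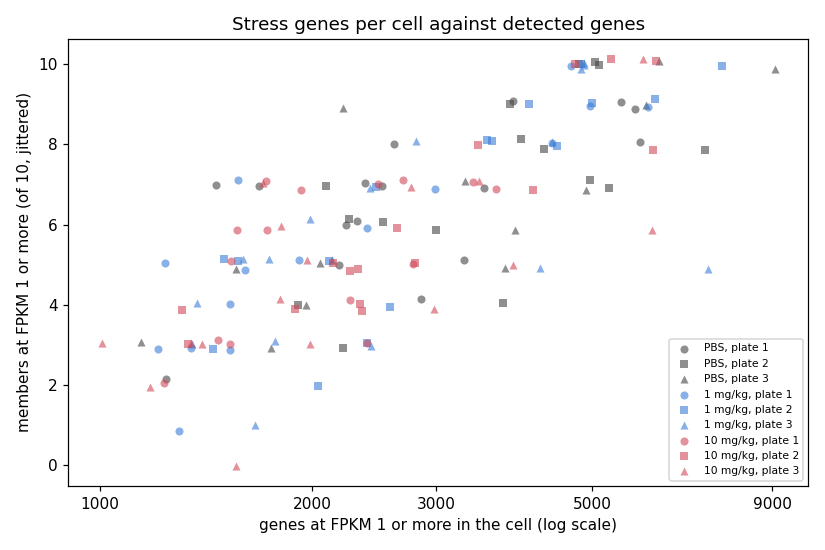
Number of the 10 genes at FPKM 1 or more in each kept cell (jittered) against the number of detected genes in that cell on a log scale, by group (colour) and plate (marker shape). The number climbs with detected genes in every group, and the 15 cells that carry all 10 genes are all among those with 3000 or more detected genes.

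Within each group, cells with more of 1 of these transcripts tended to hold more of the others. The median Spearman correlation of their 45 pairs was 0.28 in PBS, 0.29 at 1 mg/kg and 0.26 at 10 mg/kg, beside 0.16, 0.10 and 0.10 over all pairs of compared genes. With the rank of detected genes taken out, it was 0.05, 0.14 and 0.11, beside 0.03, 0.03 and 0.02. The points are cells that share plates, amplification and depth, and the mean level of the 10 genes correlated with detected genes at 0.83, 0.66 and 0.71. A mean of several genes is not like a single gene in this. Taken singly over all cells, the 10 genes correlated with detected genes at 0.33 (Sdf2l1) to 0.62 (Atf4), beside 0.33 for the median compared gene.

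The closest pairs differed between groups, though no difference was tested. In PBS cells they were Calr with Sdf2l1 (0.66, both in 40 cells), Hspa5 with Atf4 (0.63) and Herpud1 with Pdia4 (0.60). At 1 mg/kg they were Ddit3 with Atf4 (0.59), Dnajb9 with Atf4 (0.54, both in 10 cells) and Hspa5 with Atf4 (0.54). At 10 mg/kg they were Dnajb9 with Atf4 (0.55, both in 6 cells), Hspa5 with Ddit3 (0.49) and Hspa5 with Calr (0.46). There Hspa5 with Atf4 was at 0.05 with 10 Atf4 cells. With detected genes taken out, the first pair named was at 0.55 in PBS, 0.37 at 1 mg/kg and 0.45 at 10 mg/kg. Xbp1 with Pdia4 was among the loosest pairs over all cells (0.12), and at -0.13 with detected genes taken out. All 4 genes of the chaperone set Hspa5, Calr, Hsp90b1 and Sdf2l1 were found together in 36 of 46 PBS cells (78.3%, 63.6 to 89.1%), 28 of 47 low-dose cells (59.6%, 44.3 to 73.6%) and 25 of 47 high-dose cells (53.2%, 38.1 to 67.9%).

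**Figure D5:**
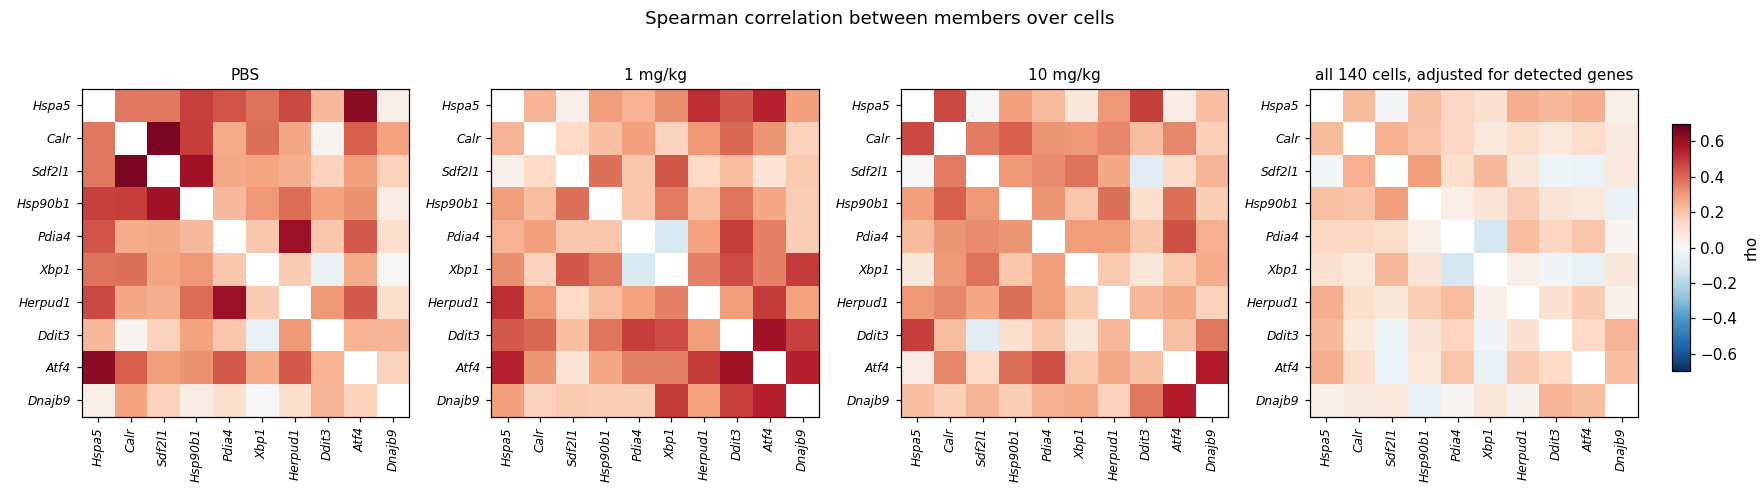
Spearman correlation (colour scale) of each pair of the 10 genes over the cells of each group, and over all 140 cells with the rank of detected genes taken out. Nearly all unadjusted pairs are above 0, Calr with Sdf2l1 in PBS is at 0.66, and the adjusted values are paler.

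The genes whose level went most closely with the mean of the 10 included other ER folding enzymes and lysosomal proteases. Likeness was the Spearman correlation over all 140 cells with detected genes taken out, among the 4806 compared genes. Pdia3, the disulfide isomerase that works with calreticulin, was first (0.54), and it held 0.62, 0.50 and 0.49 within PBS, low-dose and high-dose cells. Pdia6, another disulfide isomerase, was at 0.46. The lysosomal proteases Ctsb and Lgmn were at 0.47 each, and the immediate early factor Egr1 at 0.42. Gm25745 (0.48), Gm15344 (0.47) and 1810014B01Rik (0.44) overlap Hsp90b1 and can hold its reads, so their likeness is uncertain. The small nuclear RNA models Gm23472 and Gm25360 were at 0.41 each. Pdia3 differed by -1.74 and Pdia6 by -1.16 between high-dose and PBS cells, while Ctsb differed by 0.25.

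Other genes of the pathway are given by lists, without the 10 genes and with only those at FPKM 1 or more in at least 10% of the cells. The shares to read them against in the high-dose comparison with PBS are 81.4% below 0 and 13.4% called lower over all compared genes, with a median of -0.43. Compared genes needed 25% of the cells of any group, so the lists also hold rarer genes and the shares are not strictly alike. Of 14 other ER chaperones, 12 were below 0 and 4 were called lower, with a median of -0.89. Pdia3 (-1.74) was the lowest, and Creld2 (0.22) and Hyou1 (0.14), a large ER chaperone, were the highest. Of 15 other genes of ER-associated degradation, 11 were below 0 and 3 were called lower, with a median of -0.51. Edem1, which hands misfolded glycoproteins to that machinery, was at -1.83 and in 36.2% of high-dose against 63.0% of PBS cells, and Edem2 (0.40) and Nploc4 (0.19) were the highest. All 6 other measured sensors and proximal factors were below 0, none was called, and the median was -0.54, with Eif2s1, the target of PERK, at -0.96, Eif2a at -0.81, Atf6 at -0.16 and Atf6b at -0.11. Only 7 of the 12 genes of that list, Xbp1 among them, passed the limit of 10% of cells. The genes of IRE1 (Ern1) and PERK (Eif2ak3) did not, so values for the sensor list do not cover these sensors. Of the 28 listed genes of the ATF4 and CHOP branch, 18 passed that limit, Atf4 and Ddit3 among them. Of the 16 others, 15 were below 0 and 6 called lower, with a median of -0.87, among them Sars (-1.63), a tRNA synthetase, and Atf3 (-1.62), a factor induced by stress. Ppp1r15b (0.29), a phosphatase subunit that reverses the PERK mark, and Cebpb (-0.02) were the highest.

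In the same comparison, and beside the same 81.4% and 13.4%, 27 of 29 genes of protein translocation and secretory load were below 0 and 8 called lower, with a median of -0.77. The oligosaccharyltransferase subunits Rpn1 (-2.07) and Ddost (-1.71) were the lowest, and Srpr (0.11) and Krtcap2 (0.07) the highest. Of 15 cytosolic and mitochondrial heat shock genes, 9 were below 0 and 1 called lower, with a median of -0.45, near the -0.43 of all compared genes. They ran from Hsp90aa1 (-1.11) and Hspd1 (-0.99) to Hsp90ab1 (0.45) and Hspa8 (0.47). All 21 measured immediate early genes, which mark recent activation and can also be induced by cell isolation, were below 0 and 12 were called lower, with a median of -1.32. Btg2 (-2.07) and Junb (-2.0) were the lowest and Fosb (-0.12) and Klf4 (-0.02) the highest, and the called genes Atf3 and Ppp1r15a also stand in the ATF4 and CHOP list. No gene of these lists was called higher. With detected genes held level the medians, here with the 10 genes in their lists, were -0.04 for ER chaperones, 0.17 for degradation, 0.19 for sensors, -0.23 for the ATF4 and CHOP branch, -0.14 for translocation, -0.09 for heat shock and -0.27 for immediate early genes. The median of all compared genes was then -0.02.

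In the low-dose comparison with PBS, 64.7% of all compared genes were below 0 and 4.93% were called lower, with a median of -0.18. The medians without the 10 genes were -0.34 for ER chaperones (12 of 14 below 0), -0.15 for degradation (10 of 15), -0.28 for sensors (5 of 6), -0.44 for the ATF4 and CHOP branch (13 of 16), -0.24 for translocation (20 of 29), -0.09 for heat shock (10 of 15) and -0.33 for immediate early genes (14 of 21). With detected genes held level, and the 10 genes in their lists, they were 0.12, 0.18, 0.28, -0.08, 0.24, 0.14 and 0.35, so that all but that of the ATF4 and CHOP branch turned above 0. The median of all compared genes also turned above 0, to 0.06. Called lower were 3 genes of the ATF4 and CHOP branch, among them Phgdh (-1.59), an enzyme of serine synthesis, and Sars (-1.36), 1 of translocation, Tmed2 (-1.38), and 2 of heat shock, Hspd1 (-1.45) and Stip1 (-1.13). The other lowest genes of a list were Txndc5 (-0.69) and Fkbp2 (-0.62) of the chaperones, Selenok (-0.84) of degradation, Eif2a (-0.44) and Rtcb (-0.32) of the sensors, Rpn2 (-0.98) of translocation, and the immediate early genes Junb (-1.44) and Ier2 (-0.82). The highest were Creld2 (0.45) of the chaperones, Ube2j1 (0.71) of degradation, Nfe2l2 (0.19), Ppp1r15b (0.37), Cebpg (0.31), Ssr3 and Sec61a1 (0.52 each), Dnaja1 (0.68), Hspe1 (0.55), Fosb (0.63) and Jund (0.45). None of the highest was called.

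Gpr84, Tnf and Il1a, named in the series title, were compared with the 10 genes cell by cell. The Spearman correlation of the mean of the 10 with Gpr84 was 0.58 in PBS, 0.61 at 1 mg/kg and 0.41 at 10 mg/kg. With detected genes taken out it was 0.05, 0.38 and 0.12. The same values for Tnf were -0.07, 0.17 and 0.19, and for Il1a 0.15, 0.30 and 0.24. Of single genes, Ddit3 kept 0.38, 0.33 and 0.27 with Gpr84 after the adjustment in the 3 groups, and Atf4 kept 0.35, 0.24 and 0.33 with Tnf. Other pairs changed sign between groups. Sdf2l1 with Tnf was at -0.31, 0.07 and 0.41, and Xbp1 with Gpr84 at -0.23, 0.19 and 0.27. No value over all compared genes is given for such pairs. At 10 mg/kg Gpr84 itself differed from PBS by -1.66, Tnf by -1.39 and Il1a by -1.29. Each was called lower, as were 13.4% of all compared genes. The median difference was -0.84 for the 10 genes and -0.43 for all compared genes. With detected genes held level, Gpr84, Tnf and Il1a differed by -0.36, 0.02 and -0.16. The 10 genes then had a median of 0.09, with Herpud1 the lowest at -1.29, beside -0.02 for all compared genes.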

How the data were processed

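The authors deposited FPKM values (reads relative to gene length and to all assigned reads of the cell) for every gene and cell, with a gene length in bases. The submitters' processing notes name STAR 2.7.2b with featureCounts 1.6.1, and also cutadapt 1.16, Trimmomatic 0.36 and Trim Galore 0.4.4, with the build GRCm38.p6 (mm10). Their settings and the use of strand are not given in the sources used here. No molecular identifiers were named, so intervals cover counting error only.

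Gene coordinates equalled GENCODE M21. Detection was FPKM 1 or more, cells needed 1000 detected genes, and differences were taken between mean log2(FPKM + 1) values (pseudocount 1), which understates changes of low genes. Differences were adjusted for log2 detected genes with 1 slope per gene, and correlations by residuals of ranks. The 10 genes, the pathway lists and the marker lists were chosen with earlier results of these data known. The text names all 10 genes, the 2 lowest and 2 highest of each list for each dose against PBS, and the 10 genes most alike. A gene that this rule names is not reported here. Reads per cell were estimated by taking the most frequent value of FPKM times length in a cell as 1 read. In the median kept cell 52.9% of the values above 0 were whole multiples of it, so read numbers are approximate. Python 3.11.15, numpy 2.4.6, pandas 2.3.3 and scipy 1.17.1 were used, and the difference script was tested on simulated data. Alternatives are given in the closing section.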

Additional observations from a re-analysis of the deposited data

How the results depend on the processing

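Each group is 1 sample, so settings move descriptions and no call of a test. For low dose minus PBS the median difference of the 10 genes (-0.09) became -0.23 with pseudocount 0.1, 0.082 with pseudocount 10, 0.33 as a log2 ratio of mean FPKM, 0.62 in cells with at least 2000 detected genes, 0.42 adjusted for detected genes and -0.33 with median ratio size factors. Without each plate in turn it ran from -0.18 to 0.19. The number below 0 (6) became 3 with pseudocount 10 and 1 with the ratio of means, in cells with 2000 genes and after adjustment. For high dose minus PBS the median (-0.84) became -0.18 as a ratio of means, -0.017 in cells with 2000 genes, 0.090 adjusted and -0.25 in cells with 1500 to 4000 genes, where the number below 0 (10) became 6; it became 5 in cells with 2000 genes and 4 adjusted. For high minus low dose the median (-0.88) became -0.12 in cells with 1500 to 4000 genes.

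Over 14 settings Herpud1 at the high dose minus PBS ran from -3.08 to -0.88 and Hsp90b1 from -2.29 to -0.84, with each at -1 or lower in 13 of them. Sdf2l1 at the high dose turned to 0.48 as a log2 ratio of mean FPKM. Genes per cell (6.67, 6.02 and 5.36 for PBS, low and high dose) became 8.04, 7.60 and 7.62 at any FPKM above 0, 4.80, 4.6 and 3.28 at FPKM 10 or more, and 7.16, 7.39 and 6.38 in cells with 2000 genes. In cells with 1500 to 4000 genes they became 5.97, 5.09 and 5.25, so that the order of the doses turned. The median correlation of the pairs became 0.40 in PBS and 0.37 at the low dose as Pearson's r of log values, and 0.053, 0.14 and 0.11 in the 3 groups with detected genes taken out. With the plate as replicate block, the medians were -0.12, -0.86 and -0.88 for low dose minus PBS, high dose minus PBS and high minus low dose. The short Ddit3 model, an alternative added after seeing the data, gave 0.01 in place of -0.40 for the high dose and -0.34 in place of -0.14 for the low dose. The cause of these shifts was not tested.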
